A study of Mus musculus with 2 samples.

Results

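The cells described here were resting CD8+ tumor-infiltrating lymphocytes (TIL) with a high level of interferon-stimulated transcripts in B16 F0 melanoma. They were chosen by their own transcript counts, as cells with at least 5 unique molecular identifiers (UMIs, 1 per captured transcript) of Ifit1, Ifit3 and Isg15 together. A cell also had to hold fewer than 2 UMIs of Gzmb, fewer than 5 of the mitosis genes Top2a, Mki67 and Birc5, and fewer than 8 of the S-phase genes Mcm3, Mcm5, Pcna, Tyms and Rrm2, so that cytolytic and dividing cells were left out. The rule selected 168 of 4745 cells within the filters on mitochondrial share and depth. There were 74 of 2456 cells from lean mice on normal chow (NC) and 94 of 2289 cells from obese mice on western diet (WD).

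Both groups were male C57BL/6 mice of 16 weeks with B16 F0 tumors transplanted under the 2 diets, and no other treatment or genotype separated them. CD8+ TIL were enriched on magnetic beads, sorted on CD8 protein and captured on the Chromium 3′ platform as 1 library per diet. The number of mice behind each library is not given in the sources used here. Diet and library therefore cannot be told apart, no test between them was possible, and the intervals below are 95% intervals for counting error only. The 2 libraries shared 4 barcodes, and 0 of these belonged to the selected cells.

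Type I interferons bind a receptor of Ifnar1 and Ifnar2 on almost every cell and act through the kinases Jak1 and Tyk2. These activate a transcription factor complex that holds Stat2 and Irf9 and binds the interferon-stimulated response element (ISRE) in the promoters of antiviral genes. Ifit1 encodes a protein that recognises foreign RNA, Ifit3 encodes a protein of the same family, and Isg15 encodes a ubiquitin-like modifier. Interferon gamma acts mainly through another element, GAS, and the target genes of both pathways overlap, so transcripts alone do not name the ligand.

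The promoters of the 3 rule genes and of 2 genes that followed them most closely are shown because they carry the element that joins these genes. Each run reads 5′ to 3′ on the gene's strand, from 250 bases before the start of transcription to 50 bases after it, from the RefSeq table for GRCm38.p6 (the mm10 build). Capitals mark matches to the ISRE core GAAANNGAAA on either strand. Ifit1 lies at chr19:34640639-34640938 on the plus strand, Ifit3 at chr19:34583279-34583578 on the plus strand and Ifit3b at chr19:34607707-34608006 on the plus strand. Isg15 lies at chr4:156200769-156201068 on the minus strand and Rsad2 at chr12:26456403-26456702 on the minus strand.
Ifit1: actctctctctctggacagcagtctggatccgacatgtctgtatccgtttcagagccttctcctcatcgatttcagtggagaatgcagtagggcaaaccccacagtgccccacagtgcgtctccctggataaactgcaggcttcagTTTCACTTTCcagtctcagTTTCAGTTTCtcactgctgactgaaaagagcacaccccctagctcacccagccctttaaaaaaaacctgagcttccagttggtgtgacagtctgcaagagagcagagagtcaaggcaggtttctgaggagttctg
Ifit3: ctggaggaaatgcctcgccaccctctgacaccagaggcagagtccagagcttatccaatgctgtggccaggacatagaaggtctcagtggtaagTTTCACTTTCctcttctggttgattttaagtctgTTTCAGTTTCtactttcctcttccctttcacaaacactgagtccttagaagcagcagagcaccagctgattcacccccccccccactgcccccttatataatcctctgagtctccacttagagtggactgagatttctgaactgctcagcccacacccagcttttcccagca
Ifit3b: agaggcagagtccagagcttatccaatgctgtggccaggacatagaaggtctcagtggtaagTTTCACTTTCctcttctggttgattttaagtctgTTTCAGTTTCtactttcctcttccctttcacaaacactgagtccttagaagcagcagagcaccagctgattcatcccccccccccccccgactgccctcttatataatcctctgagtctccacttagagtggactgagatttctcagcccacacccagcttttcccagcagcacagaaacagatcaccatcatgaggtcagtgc
Isg15: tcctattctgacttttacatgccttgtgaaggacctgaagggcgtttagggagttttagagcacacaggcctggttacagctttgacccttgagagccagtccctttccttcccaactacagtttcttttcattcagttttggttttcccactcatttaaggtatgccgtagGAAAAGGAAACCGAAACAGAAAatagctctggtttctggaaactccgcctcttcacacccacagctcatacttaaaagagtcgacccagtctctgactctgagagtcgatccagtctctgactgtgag
Rsad2: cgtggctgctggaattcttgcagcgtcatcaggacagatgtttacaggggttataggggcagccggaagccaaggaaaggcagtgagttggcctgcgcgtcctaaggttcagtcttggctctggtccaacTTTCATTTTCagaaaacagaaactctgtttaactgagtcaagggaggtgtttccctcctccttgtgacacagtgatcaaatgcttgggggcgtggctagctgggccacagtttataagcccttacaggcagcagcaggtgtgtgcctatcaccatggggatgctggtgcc

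Ifit1 held 2 matches, the first bases of which lay 104 and 85 bases before the start, and Ifit3 held 2, at 156 and 122 bases. The matches of Isg15 overlapped, at 78, 72 and 66 bases before the start, and Rsad2 held 1 at 120 bases. Ifit3 and Ifit3b shared an unbroken run of 169 identical bases that included both of their matches. The ISRE core was present in 3.44% of all 32851 promoters of 300 bases in RefSeq, against 22 of 50 promoters (44%) of a list of antiviral effector genes and 9 of 10 (90%) of a list of interferon-inducible GTPases. The shorter GAS core TTCNNNGAA was present in 8.30% of all promoters, in 9 of the 50 antiviral promoters and in 6 of the 10 GTPase promoters. A match describes the letters of the window and not a bound site. The last 50 bases of each window lie in the transcript itself, and genes with several starts enter more than once.

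The sum of Ifit1, Ifit3 and Isg15 had no gap at the limit in either library. In NC 770 of 1195 resting cells (64.4%) had 0 UMIs of the 3 genes, and in WD 711 of 1172 (60.7%) did. Just under the limit, at 3 or 4 UMIs, stood 69 NC and 70 WD cells, and just above it, at 5 or 6 UMIs, 24 NC and 25 WD cells. The selected cells are thus the upper range of a continuous score, and no clustering was used to set them apart. Their median sum was 8.5 UMIs in NC and 9 in WD, and the highest single cells held 42 and 57 UMIs.

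**Figure D1:**
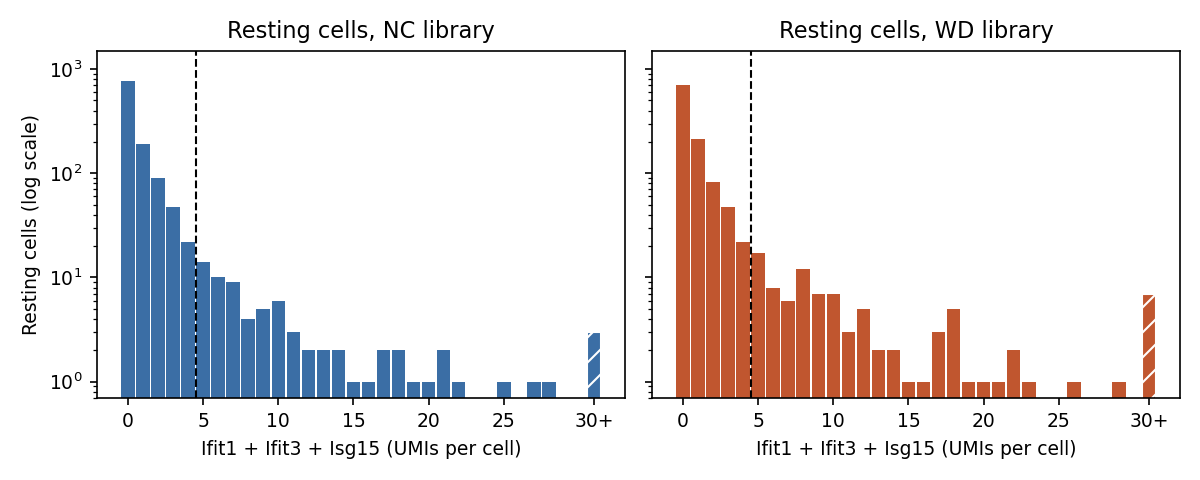
Number of resting cells (log scale) at each sum of Ifit1, Ifit3 and Isg15 UMIs, for the NC and the WD library, with sums of 30 or more in 1 hatched bar. The dashed line marks the limit of 5 UMIs, which 74 NC and 94 WD cells reached, and neither library has a gap there.

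Nearly all selected cells held UMIs of more than 1 rule gene, but in most of them 1 gene outweighed the other 2 together. All 3 genes were detected in 45 of 74 NC cells and 62 of 94 WD cells, and only 1 gene in 4 cells of each library. Isg15 held 368 UMIs over the NC cells and 452 over the WD cells, Ifit3 held 328 and 481, and Ifit1 held 136 and 263. Isg15 alone outweighed the other 2 genes together in 26 NC and 28 WD cells, Ifit3 in 20 and 31, and Ifit1 in 4 and 10. Of the other limits, Gzmb was at 0 UMIs in 56 NC and 65 WD cells and at 1 UMI in the rest. A further 109 NC and 102 WD cells reached the limit of 5 but were left out by Gzmb alone, 19 and 22 of them with just 2 or 3 Gzmb UMIs.

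Among all cells within the filters the selected cells were 3.01% of NC (interval 2.37% to 3.77%) and 4.11% of WD (3.33% to 5.0%). Among resting cells they were 6.19% of NC (4.89% to 7.71%) and 8.02% of WD (6.53% to 9.73%), intervals that overlap. The WD library was deeper, with a median of 9103 UMIs per cell against 7958, and a fixed UMI limit is reached more easily in a deeper cell. Each cell was therefore thinned to 4000 UMIs, with limits of 3 for the sum and 1, 3 and 4 for the other genes, which left out 383 NC and 259 WD cells. Over 50 thinning draws the mean share of resting cells was 7.60% in NC (6.34% to 8.64% between draws) and 7.62% in WD (6.42% to 8.36%). The range between draws describes the thinning and not the counting error. In 1 further thinned draw the share was 7.37% in NC (exact interval 5.73% to 9.30%) and 7.94% in WD (6.32% to 9.82%), intervals that overlap. At equal depth the mean shares of resting cells were thus close, and a difference between the libraries was not tested.

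Cells that were not resting reached the limit more often. Of these, 150 of 1261 NC cells (11.9%, interval 10.2% to 13.8%) and 160 of 1117 WD cells (14.3%, 12.3% to 16.5%) held at least 5 UMIs of the 3 genes. They were also deeper, with median depths of 10804.5 and 11384.5 UMIs against 7120.5 and 8106.5 in the selected resting cells. After thinning the mean shares were 9.11% in NC (8.27% to 10.1% between draws) and 11.6% in WD (10.3% to 12.9%). The distance between resting and non-resting cells was smaller at equal depth in both libraries.

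**Figure D2:**
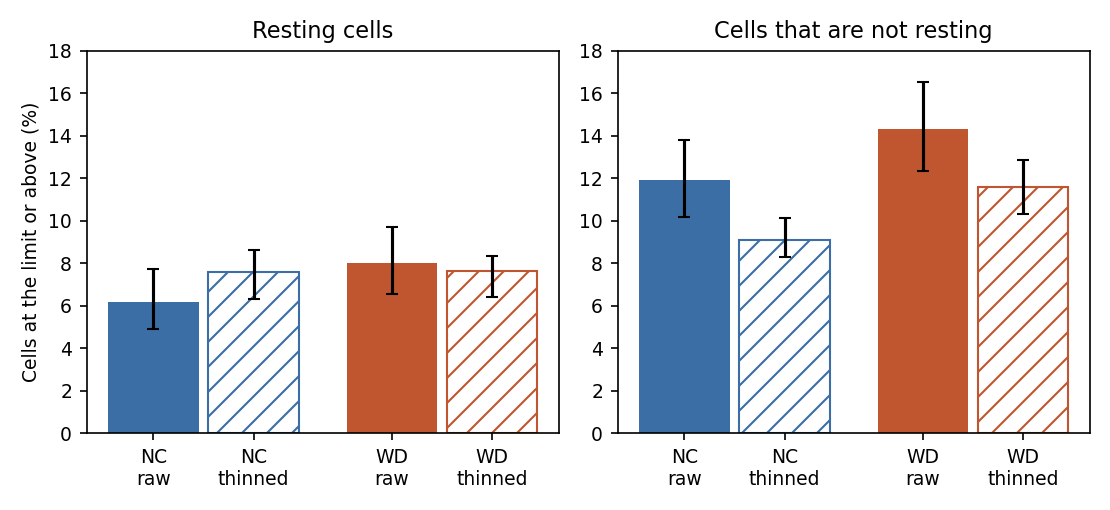
Share of cells (%) with Ifit1, Ifit3 and Isg15 at the limit or above, for resting cells (left) and cells that are not resting (right). Solid bars are raw UMIs with 95% exact binomial intervals, and hatched bars are means of 50 draws thinned to 4000 UMIs with the lowest and highest draw. Thinned resting shares were 7.60% in NC and 7.62% in WD.

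The label of CD8+ T cells held for nearly all of the selected cells. Every cell had a UMI of Cd3d, Cd3e or Cd3g, with medians of 21 UMIs per cell in NC and 22.5 in WD, and 3 NC cells and 1 WD cell had no UMI of Cd8a or Cd8b1. Across 12 T cell identity genes the median log2 ratio of the selected cells over the other resting cells was 0.00 in NC and 0.23 in WD. Of the 6 melanoma genes looked for, with Pmel among them, 0 UMIs were counted in NC and 2 in WD, and of 5 red cell genes 0 and 2. In the other WD resting cells the red cell genes summed to 1145 CPM, against 0 in NC. The B cell list held 44 and 67 UMIs, of which Ighm made up 42 and 59, and Cd40lg led the 3 and 16 UMIs of the CD4 and regulatory T cell list. Natural killer and gamma-delta T cell genes gave 78 and 75 UMIs, led by Fcer1g with 38 and 30, of which 30 and 20 lay in the 1 cell of each library with myeloid transcripts described next.

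Myeloid transcripts came from 1 cell in each library. An NC cell of 9359 UMIs held 230 UMIs of Lyz2 and 75 of Ifitm3, with 2 UMIs of Cd3 genes and 0 of Cd8a, Cd8b1 and the T cell receptor constant genes. Its Isg15 count of 10 brought it into the selection, with 0 UMIs of Ifit1 and Ifit3. A WD cell held 19 UMIs of C1qa and 43 of Cxcl9 beside 31 of Cd3 genes and 12 of Cd8a and Cd8b1. The myeloid list held 262 UMIs in NC, 251 of them in that cell, and 66 in WD, 52 of them in that cell.

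Many antiviral genes beyond the rule genes had higher levels in the selected cells. The comparison was made within each library, with the 1121 NC and 1078 WD resting cells under the limit. Levels are UMIs per 1000000 UMIs of the pooled cells (CPM). Of the genes with at least 50 CPM in 1 of the 4 pools, 2.88% were at least 2-fold higher in the selected cells of both libraries, and 0.194% at least 2-fold lower. Of the antiviral effector list 29 of 34 such genes were at least 2-fold higher in both libraries, of the GTPases 10 of 11 and of the nucleic acid sensors 4 of 4. Since Ifit1, Ifit3 and Isg15 in the same cells split the groups, these counts describe the selected cells and are not tests. Part of the genes were also measured only through the selected cells: of 40 antiviral genes with 10 CPM, 10 in NC and 8 in WD were under 10 CPM in the other resting cells. The counts at 50 CPM share this limit. Slfn5 (15.7 and 22.1 CPM), the GTPase Iigp1 (20.7 and 19.7) and the sensor Dhx58 (5.98 and 7.11) were under 50 CPM in the other resting cells of NC and WD. How many counted genes passed in this way is not given here.

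Among genes outside the rule, Rsad2 ranked first by the library with the ratio nearer 0. Rsad2 encodes viperin, an enzyme that makes a chain-terminating nucleotide, and was at 67.8 CPM in NC and 96.3 in WD against 4.03 and 4.87 in the other resting cells, log2 ratios of 4.07 and 4.31. Cmpk2, its neighbour on chromosome 12 and a nucleotide kinase, was at 62.4 and 39.7 CPM against 3.62 and 4.12, and its NC ratio of 4.11 was just above that of Rsad2. Ifit3b was at 121 and 126 CPM against 7.65 and 5.62, with a higher WD ratio of 4.49, but its transcripts resemble those of Ifit3 so closely that reads may be shared with a rule gene.

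Genes that restrict virus replication by other means were higher to a like degree in both libraries. Slfn5, a Schlafen family member, was at 171 CPM in both against 15.7 and 22.1, a log2 ratio of 3.44 in NC and 2.95 in WD. Isg20, an exonuclease, had ratios of 2.86 and 2.81, Oasl2 of 2.59 and 2.64, Ifit2 of 2.44 and 2.86 and Rtp4 of 2.09 and 2.03. Bst2, which tethers budding virions, was at 788 and 631 CPM against 235 and 192, and Ifi27l2a at 2065 and 2967 against 774 and 1037. Ifi27, in contrast, was at 191 and 176 CPM against 188 and 187, so it showed no difference beyond counting error.

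Ifitm2, Ifitm3 and Ifi204 stood apart from the rest of the list. Ifitm3 was at 166 CPM in NC, but 80.6% of its UMIs lay in the 1 myeloid-marked cell, and at 16.9 CPM in WD. Without that cell it was at 32.6 CPM in NC, still above the 3.76 CPM of the other NC resting cells, and with the highest cell of each library left out its ratio of WD to NC moved from -3.30 to -2.17 (-3.79 to -0.77). For Ifitm2 that cell held all 20 NC UMIs, against 2 UMIs in WD. Ifi204 had 15 NC UMIs, of which 66.7% lay in 1 cell. Of the 40 measured antiviral genes 1 in NC and 2 in WD were at least 2-fold lower in the selected cells than in the other resting cells. The lowest log2 ratios were -1.73 in NC and -2.93 in WD, and 0 intervals in NC and 2 in WD lay below 0.

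**Figure D3:**
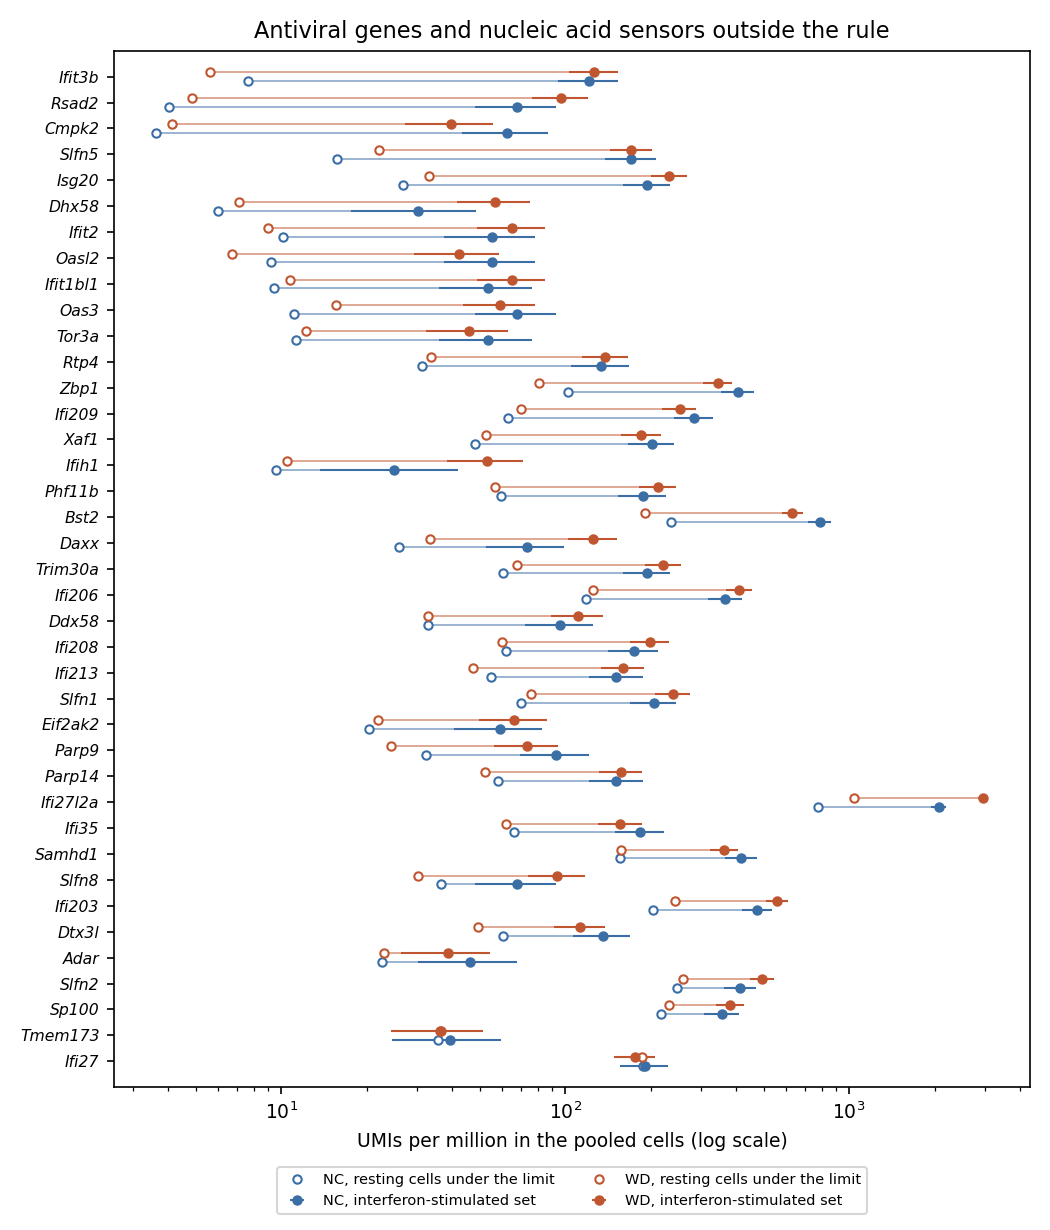
CPM (log scale) of antiviral and nucleic acid sensor genes in the pooled interferon-stimulated cells (filled, with 95% Poisson intervals) and in resting cells under the limit (open), for NC and WD. Genes with at least 20 CPM in the selected cells of both libraries are shown, ordered by the mean log2 ratio. Nearly all lie to the right of their open circles in both libraries, whereas Tmem173 and Ifi27 lie within counting error of theirs.

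Sensors of foreign nucleic acid followed the same pattern. Zbp1, a sensor of Z-form nucleic acid, was at 405 CPM in NC and 344 in WD against 102 and 80.7, log2 ratios of 1.99 and 2.09. Dhx58 had ratios of 2.34 and 2.99, Ddx58, which encodes RIG-I, of 1.55 and 1.75, and Ifih1, which encodes MDA5, of 1.38 and 2.34. Tmem173, which encodes the adaptor STING, was level at 39.2 and 36.1 CPM against 35.8 and 36.6.

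Of the signal transducers, 2 of 8 genes with 50 CPM were at least 2-fold higher in both libraries. Irf7, a factor that amplifies interferon responses, was at 228 and 252 CPM against 73.2 and 56.8, log2 ratios of 1.64 and 2.15. Stat2 had ratios of 1.94 and 1.34, and Irf8, a factor also of dendritic cells, was lower at -1.06 (-1.71 to -0.47) and -0.92 (-1.59 to -0.32). Irf1 was at 373 and 337 CPM against 351 and 323, and Jak1 at 294 and 307 against 314 and 313, differences within counting error. Irf9 had a ratio of 0.10 in NC (-0.57 to 0.70) and 0.83 in WD (0.42 to 1.23), intervals that overlap. Over the 10 measured genes of this list the median ratio was 0.08 in NC and 0.46 in WD, against -0.06 and -0.00 over all genes.

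In the ISG15 pathway and its feedback, 2 of 4 genes with 50 CPM were at least 2-fold higher in both libraries. Usp18, which removes Isg15 and restrains the receptor, was at 69.6 and 80.7 CPM against 11.4 and 8.36. The ligase Herc6, the other gene counted, had ratios of 1.73 and 1.84. The conjugating enzyme Ube2l6 was under 50 CPM in every pool and so not counted, with ratios of 3.25 and 2.04. Socs1 and Socs3, which restrain JAK kinases, had ratios of 0.14 and 0.06, and of 0.22 and -0.19. The receptors Ifngr1 (387 and 370 CPM) and Ifnar2 (92.7 and 97.6 CPM) lay within counting error of the other resting cells, and Ifnar1 was at 35.7 CPM in NC against 60.9, a ratio of -0.77 (-1.50 to -0.13), where WD had 0.02 (-0.48 to 0.48), intervals that overlap. Of 9 type I and type III interferon genes looked for, 0 UMIs were counted in the selected cells of either library, and the limit that a count of 0 allows, taken as 3 UMIs, is 5.35 CPM in NC and 3.61 in WD.

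GTPases known best as targets of interferon gamma were also higher in the selected cells. Over 16 measured genes the median log2 ratio was 1.44 in NC and 1.45 in WD over 15. Iigp1 had ratios of 2.42 and 2.36, Gbp2 of 1.98 and 1.91, Gbp7 of 1.56 and 1.40 and Irgm1 of 1.30 and 1.31. Tgtp1 and Tgtp2, which are near-identical copies, had ratios of 1.89 and 1.76 and of 1.56 and 1.45, and reads may be divided between them. Of the antigen presentation genes, which load and display peptides, 1 of 18 (H2-T22) was at least 2-fold higher in both libraries. The 18 members had median ratios of 0.56 and 0.42, with B2m at 2354 and 2676 CPM against 1847 and 2033 and H2-K1 at 2515 and 2775 against 2030 and 2132.

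Chemokines and surface ligands tied to interferon were uneven. Cxcl10, which draws cells with the receptor Cxcr3, was at 241 CPM in NC and 448 in WD against 28.0 and 73.9, and Cd274, which encodes PD-L1, at 67.8 and 51.8 against 23.2 and 20.6. Tnfsf10, which encodes TRAIL, had ratios of 0.11 and 0.84. Cxcl9 rested on the WD cell with C1qa, which held 43 of 44 UMIs. Ly6a and Ly6c2, surface proteins of activated and memory T cells, had ratios of 1.24 and 1.44 and of 0.68 and 0.73.

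Antiviral levels were higher at higher rule scores on both sides of the limit, though not in every step. Summed CPM of the antiviral effectors was 2631 in NC and 2950 in WD at a score of 0, 5585 and 5165 at 3 or 4, 5408 and 7275 at 5 or 6, 7543 and 6834 at 7 to 9, and 10932 and 9920 at 10 to 19. At 20 or more it reached 14970 and 18524, from 10 and 14 cells. Slfn5 was at 14.3 and 18.3 CPM at a score of 0 and at 265 and 225 at 10 to 19. Cells at 3 or 4 UMIs, just outside the limit, thus held about as much as NC cells at 5 or 6. Of naive and central memory genes the summed CPM was 3151 in NC and 3174 in WD at a score of 0, 3335 and 1809 at 5 or 6, 1903 and 1872 at 10 to 19, and 2249 and 2046 at 20 or more.

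**Figure D4:**
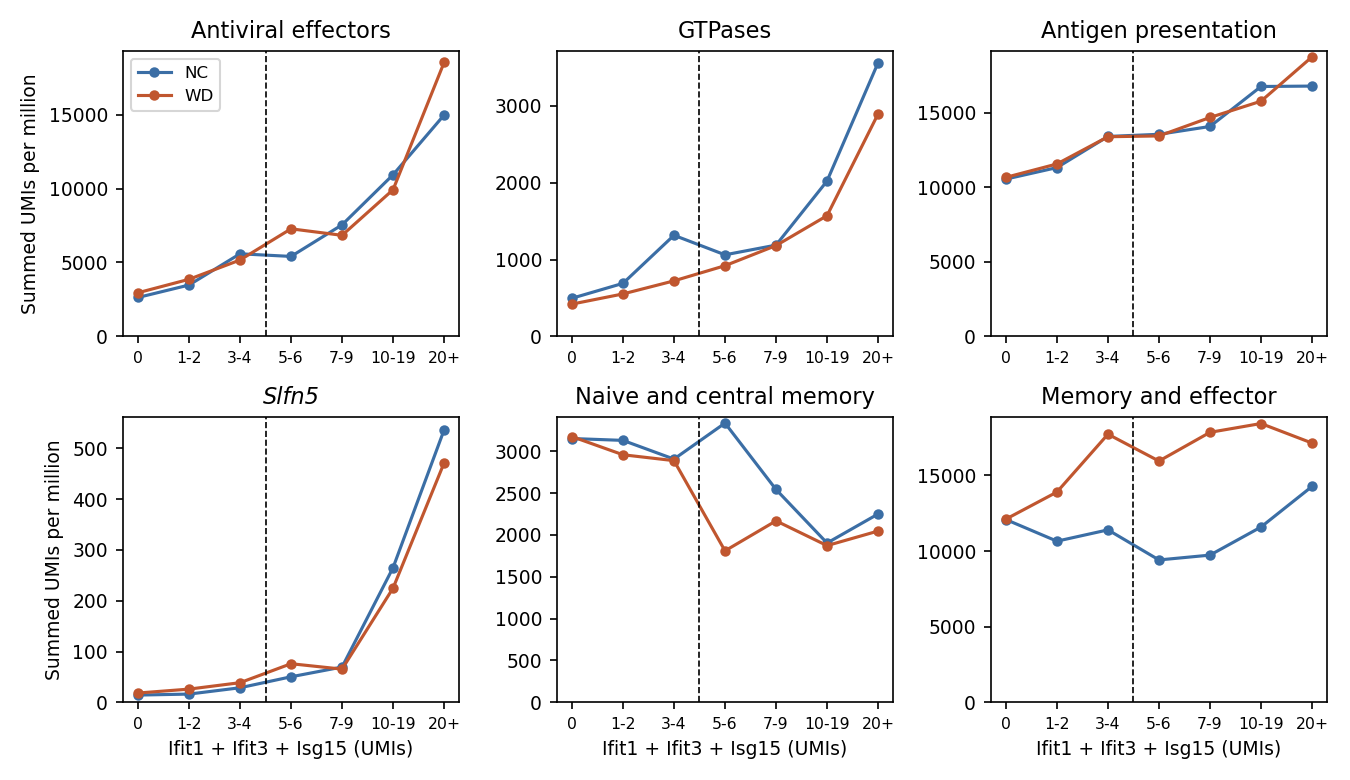
Summed CPM of 5 gene lists and of Slfn5 in resting cells, by their sum of Ifit1, Ifit3 and Isg15 UMIs, for NC and WD. The dashed line is the limit of 5 UMIs. Antiviral effectors climb from 2631 (NC) and 2950 (WD) at 0 to 14970 and 18524 at 20 or more, a bin of 10 and 14 cells.

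Of 2571 genes 5 were at least 2-fold lower in the selected cells of both libraries. Tnfrsf9, which encodes the costimulatory receptor 4-1BB, was at 32.1 CPM in NC and 14.5 in WD against 81.5 and 59.0. The nuclear transcript Gm26917 was at 310 and 452 against 981 and 942, with 44.8% of its WD UMIs in 1 cell and 253 CPM in WD without it, and Actn1 at 28.5 and 28.9 against 59.7 and 71.4. Nrgn, which encodes a calmodulin-binding protein, was at 51.7 and 51.8 against 123 and 112, with 82.8% of its NC and 60.5% of its WD UMIs in 1 cell. Ccl1 had 0 UMIs in the selected cells of both libraries, against 73.0 and 13.7 CPM in the other resting cells. Nrn1, Irf8 and Zbtb20 came next by the library nearer 0, at log2 ratios of -0.97, -0.92 and -0.92. Of the naive list S1pr1, the receptor for exit from tissue, was at 57.1 and 50.6 against 96.4 and 88.0. Cd74 and H2-Aa, markers of antigen-presenting cells, were also lower, at 37.4 and 47.0 CPM against 69.0 and 277 for Cd74.

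Between diets the antiviral level of the selected cells was close to equal. Over 40 measured antiviral genes the log2 ratio of WD to NC had a median of 0.06, against 0.11 for all genes with 10 CPM in 1 library. The rule itself sets a floor under the level, so this equality is in part fixed by the selection. Bst2 was lower in WD (log2 ratio -0.32, interval -0.51 to -0.13) and Ifi27l2a higher (0.52, 0.42 to 0.63). Slfn5 was at -0.00 (-0.39 to 0.39) and Zbp1 at -0.23 (-0.49 to 0.02). The ratios in the other resting cells were -0.29 for Bst2 and 0.49 for Slfn5. Cxcl10 was higher in WD in the selected cells (0.90, 0.61 to 1.19), and also in the other resting cells, at 1.40. Its WD level came mostly from the highest scores: at 20 or more it was at 298 CPM in NC and 2253 in WD, and at 10 to 19 the order was the opposite, at 491 and 198.

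The libraries stood further apart in memory and naive genes. Of 2439 genes with 50 CPM in 1 library, 3.12% (76 genes) were at least 2-fold higher in WD and 0.779% (19 genes) at least 2-fold lower. Of these, 57 of the higher genes had 50 CPM only in WD and 16 of the lower only in NC, so most passed the filter through the library where they were high. With mitochondrial, ribosomal protein and rule genes left out of the total, the split was 123 higher and 78 lower. Of 23 memory and effector genes with 50 CPM in 1 library 8 were at least 2-fold higher in WD and 1 lower, and of 12 naive and central memory genes 0 were higher and 1 lower. Of the 8 memory genes 7 had 50 CPM in both libraries and 1 only in WD, the lower one only in NC, and all 12 naive genes had it in both. The median log2 ratio over 28 measured memory and effector genes was 0.62, against -0.05 for the same list in the other resting cells. Over 15 measured naive and central memory genes it was -0.50, against -0.01 over 16 in the other resting cells.

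Effector chemokines and cytokines were among the memory genes higher in WD. Ccl5, a chemokine stored by memory CD8+ T cells, was at 2989 CPM in NC and 6416 in WD (log2 ratio 1.10, interval 1.02 to 1.18), against 4257 and 5203 in the other resting cells (0.29, 0.27 to 0.31). Ifng was at 196 and 481 CPM (1.29, 0.98 to 1.61), against 196 and 283 (0.53). Ccl4 was at 205 and 547 (1.41, 1.12 to 1.72), where the other resting cells went the opposite way, at 423 and 351 (-0.27). For these genes the NC cells were at or under the level of the other NC resting cells, and the WD cells were above that of theirs.

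Of the 28 measured memory and effector genes 15 had a WD over NC interval above 0, 2 below 0 and 11 an interval that held 0. Over all 7035 genes measured in the selected cells, 581 had an interval above 0 and 289 below 0. In the larger pools of other resting cells, 13 of 28 genes of the list had an interval above 0 and 13 below 0. Cxcr6, a receptor that holds T cells in tissue, was at 80.2 CPM in NC and 234 in WD (1.54, 1.07 to 2.04), S100a4 at 391 and 957 (1.29) and Id2, a regulator of effector differentiation, at 198 and 422 (1.09). The other resting cells had the same direction in these 3 genes, at 0.36, 0.72 and 0.62. The integrin Itga4 was at 87.4 and 178 (1.03), against 0.53. Gzmk, a granzyme of memory-like cells, was at 39.2 and 126 (1.69, 1.02 to 2.42), and its ratio in the other resting cells, 1.56, was about as high. Klrc1 went the other way at 89.2 and 40.9 (-1.12, -1.80 to -0.47), and Gzma at 46.4 and 21.7 (-1.10, -2.05 to -0.17), with 13 of its 26 NC UMIs in 1 cell.

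Of 15 measured naive and central memory genes 9 had a WD over NC interval below 0, 6 an interval that held 0 and 0 an interval above it. Over all 7035 genes measured in the selected cells, 289 had an interval below 0, 6165 one that held 0 and 581 one above it. In the other resting cells 5 of 16 genes of the naive list had an interval below 0 and 6 above it. The median ratio of the naive list in the selected cells, -0.50, was -0.23 with a rule limit of 3 UMIs and -0.21 with a limit of 10. Ccr7, the receptor for entry into lymph nodes, was at 136 CPM in NC and 53.0 in WD (-1.35, -1.92 to -0.80), against 149 and 147 in the other resting cells (-0.02). Tcf7, a factor of stem-like T cells, was at 143 and 93.9 (-0.60, -1.07 to -0.13), against -0.26 in the other resting cells. Klf2 was at 968 and 741 (-0.39, -0.56 to -0.22) and Bach2 at 32.1 and 8.43, from 18 and 7 UMIs. Among cells with 10 or more UMIs of the rule genes the ratio of Ccr7 was -0.17, and that of Ccl5 was 0.71. Foxp1 was at 175 and 199 (0.19, -0.18 to 0.56), within counting error.

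**Figure D5:**
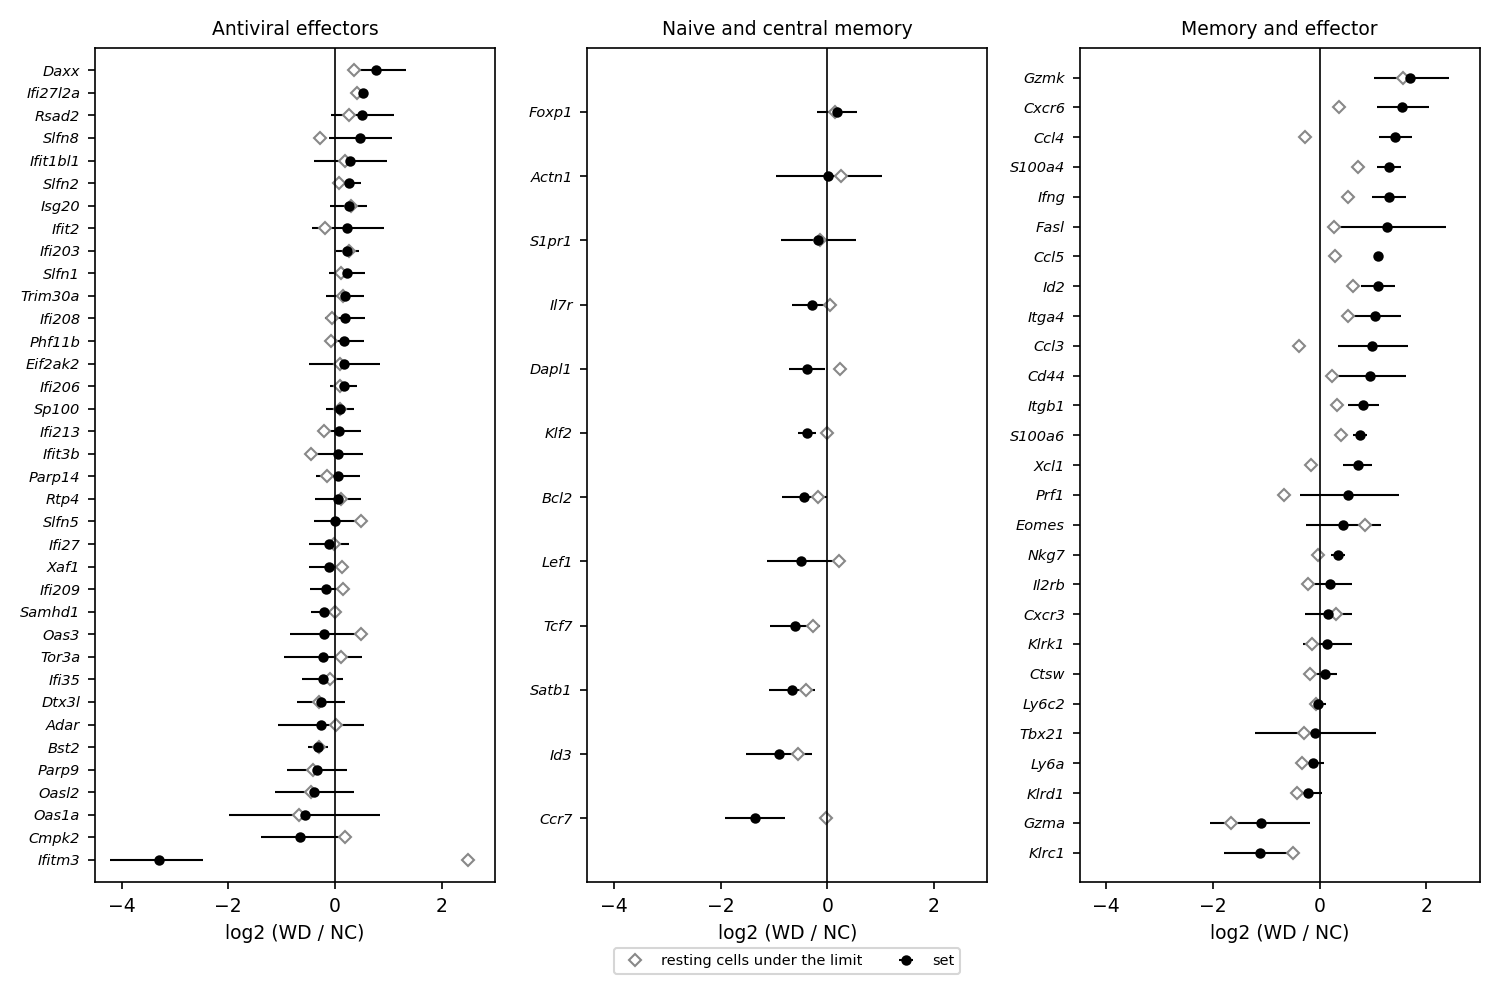
Log2 ratio of WD over NC in the selected cells (black, with exact 95% counting intervals) and in resting cells under the limit (grey diamonds) for 3 gene lists, for the reported genes with at least 10 UMIs in each library. Antiviral genes scatter around 0 apart from Ifitm3 (-3.30), Ccr7 is lowest of its list at -1.35, and Gzmk, Cxcr6 and Ccl4 lead the memory list at 1.69, 1.54 and 1.41.

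Of genes switched on by antigen 3 of 11 with 50 CPM in 1 library, Nr4a2, Nr4a3 and Ctla4, were at least 2-fold higher in WD, the first 2 with 50 CPM only in WD, and of 17 such immediate early and heat shock genes 0 were. Junb was at 1628 CPM in NC and 3224 in WD (0.99, 0.88 to 1.10) and Fosb at 228 and 429 (0.91), where the other resting cells had ratios of 0.55 and 0.30. Nr4a2 was at 37.4 and 145 (1.95, 1.27 to 2.69), Nr4a3 at 14.3 and 51.8 (1.86, 0.75 to 3.16) and Ctla4 at 64.2 and 161 (1.33, 0.79 to 1.90). In the other resting cells these were higher in WD as well, at 0.65, 0.30 and 0.45. Tnfrsf9, of the antigen list but under 50 CPM, went the other way (-1.15, -2.34 to -0.02), with 11 of its 18 NC UMIs in 1 cell, and was at -0.05 without the highest cell of each library. Over 19 measured immediate early and heat shock genes the median ratio was 0.50, close to the 0.39 of 20 in the other resting cells. Fos was at 803 and 762 CPM (-0.07, -0.25 to 0.10).

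Among the 12 genes with the highest WD over NC ratio were also Hk2 and Bhlhe40. Hk2, which encodes a hexokinase of activated cells, had 8 UMIs in NC and 72 in WD, 14.3 and 86.7 CPM (2.60, 1.55 to 3.87, and 1.62 with a rule limit of 3 UMIs), while 16 measured glycolysis genes had a median ratio of -0.19. Bhlhe40, a factor needed for cytokine production by T cells, was at 134 and 447 (1.74, 1.38 to 2.12), against 0.67 in the other resting cells. Rora was at 12.5 and 50.6, Lmnb1 at 16.1 and 54.2 and Gm17494 at 16.1 and 92.7, with 50.6% of its WD UMIs in 1 cell. Cxcl9, Cx3cr1 and Gmcl1 were also among the 12, and 1 WD cell each held 97.7%, 90.9% and 79.1% of their UMIs.

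Of the 12 lowest genes most rested on single NC cells. Lyz2 (230 UMIs in NC, 8 in WD), Ccl2 (32 and 0) and Ifitm3 (93 and 14) came wholly or mostly from the myeloid-marked cell, which held 230, 32 and 75 of the NC UMIs. Tirap, Tmem80 and Terf2ip each had 1 other NC cell that held 100%, 94.8% and 85.5% of their UMIs. Without the highest cell of each library Tmem80 and Terf2ip were at log2 ratios of 1.01 and -0.12. Ccr7, Sf3a3 (60.6 and 26.5 CPM), Treml2 (58.8 and 26.5), Gm19705 (69.6 and 15.7) and Rpl35 (3417 and 1557) did not depend on 1 cell, and Rpl35 had a ratio of -0.93 in the other resting cells as well. Without the highest cell of each library 73 of the 76 genes at least 2-fold higher in WD and 11 of the 19 lower genes were still past 2-fold.

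Cell by cell, the libraries differed less in how many cells held Ccl5 than in how much. Of the selected cells 55 of 74 in NC (74.3%, interval 62.8% to 83.8%) and 76 of 94 in WD (80.9%, 71.4% to 88.2%) had at least 5 Ccl5 UMIs, against 60.5% and 60.1% of the other resting cells. Cells with at least 10 UMIs of Siglech, H2-Aa, H2-Ab1 and Cd79a, which mark dendritic and B cells, also held Ccl5. Of these, 8 of 16 in NC and 13 of 23 in WD had at least 5 Ccl5 UMIs. Median depths of these marked cells were 17083.5 and 18123 UMIs, against 7120.5 and 8106.5 in the selected cells. Whether free RNA or doublets gave these Ccl5 UMIs was not tested. At least 50 Ccl5 UMIs were found in 6 of 74 NC cells (8.11%, 3.03% to 16.8%) and in 41 of 94 WD cells (43.6%, 33.4% to 54.2%). In the other resting cells these shares were 19.4% and 27.0%. With each cell thinned to 4000 UMIs and a limit of 25 Ccl5 UMIs, the mean shares over 50 draws were 16.2% of 64 NC cells and 39.9% of 90 WD cells, against 26.8% and 30.8% of the other resting cells. At either depth the selected WD cells had the highest share of the 4 pools and the selected NC cells the lowest.

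The interferon programme was present in both Ccl5 ranges: antiviral effectors summed to 8836 CPM in NC and 9209 in WD with at least 5 Ccl5 UMIs, and to 8065 and 10291 below. Median sums of the rule genes were 9 in both libraries above the Ccl5 limit, and 7 and 8 below it.

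Within cells of at least 5 Ccl5 UMIs the WD over NC ratios of Ifng, Cxcr6, S100a4 and Ccr7 kept the direction seen in all selected cells. They were 1.16 for Ifng (interval 0.83 to 1.49), 1.37 for Cxcr6 (0.88 to 1.90), 1.26 for S100a4 (1.02 to 1.51) and -2.12 for Ccr7 (-3.02 to -1.28). Lef1, a factor of naive T cells, was at 0.18 there (-0.71 to 1.11) and at -0.50 (-1.14 to 0.14) in all selected cells, both within counting error. Below 5 Ccl5 UMIs there were 19 NC and 18 WD cells, and Ccr7 was at -0.27 (-1.06 to 0.51), within counting error. Ccl4 and Cxcl10 had the opposite direction there. Ccl4 was at -0.51 (-1.92 to 0.83), from 13 and 9 UMIs, and Cxcl10 at -1.39 (-2.28 to -0.55), from 45 and 17 UMIs. Of those 45 Cxcl10 UMIs 20 lay in the NC cell with Lyz2, which had 0 Ccl5 UMIs.

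Against the non-resting cells with the same interferon limit, the selected cells held more of both the antiviral and the naive lists per UMI. Antiviral effectors summed to 8587 CPM in NC and 9442 in WD against 7040 and 7635, and naive and central memory genes to 2616 and 1945 against 712 and 1033. Memory and effector genes summed to 10661 and 17339 against 23778 and 21146. Glycolysis genes were at 2723 and 2642 against 7740 and 5221. The depth of the non-resting cells and the limits on Gzmb and division genes differ by construction, and their part in these distances was not tested.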

How the data were processed

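CD8+ TIL from B16 F0 tumors of mice on NC or WD were profiled as 1 library per diet. The authors made the deposited UMI counts per gene and cell, and the submitters' processing notes name Cell Ranger 6.0.2 and the mm10 build. The 5320 deposited barcodes equal the number of cells the methods report as kept, although the filters stated there (under 7.5% mitochondrial UMIs, over 500 and under 50000 UMIs) left 4745. The selection rule, gene lists and comparisons were chosen with earlier results of these data known. UMIs were summed over cells of a set and library and scaled to CPM by the set's total (560748 UMIs in NC and 830332 in WD for the selected cells). Levels have exact Poisson intervals, shares exact Clopper-Pearson intervals, and log2 ratios exact conditional binomial intervals. Past-fold counts used genes with at least 50 CPM in 1 pool and 20 UMIs in all, and list medians genes with 10 CPM in 1 of 2 pools. A count of 0 entered a median as 3. Named genes were those of the lists, the 12 highest and 12 lowest WD over NC, and the 15 highest and 15 lowest against other resting cells by the library nearer 0. No doublet caller was run, and leaving out the deepest 10% of cells removed 0 selected cells, so doublets among them were not checked. Mx1, Mx2 and Cxcl11 did not match a symbol and were not analysed here, and some other genes of the lists and ranks are not reported here. Analysis used Python 3.11.15, scipy 1.17.1 and, for TMM factors, edgeR 4.0.16, and the ratio and interval calculations were tested on simulated data. Alternatives varied the limits, filters, scaling, depth and cells left out.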

Additional observations from a re-analysis of the deposited data

Results flagged for a closer look

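In 8 of 218 list genes (3.67%) the selected cells lay on opposite sides of the other resting cells in the 2 libraries, with both counting intervals away from 0, and in 31 of all 2571 genes (1.21%). With 1 library per diet the difference between the libraries was not tested. The log2 ratio of Ccl5 was -0.51 in NC and 0.30 in WD, and that of Ccl4 was -1.05 and 0.64. Xcl1, a chemokine for cross-presenting dendritic cells, was at -0.70 and 0.18, and the integrin Itgb1 at -0.30 and 0.18. Hk2 was at -1.32 and 1.07. Junb was at -0.25 and 0.18, Btg2, which restrains proliferation, at -0.41 and 0.21, and the T cell surface protein Thy1 at -0.29 and 0.26. In each of the 8 genes the NC ratio was below 0 and the WD ratio above it.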

How the results depend on the processing

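Some settings left the selected cells as they were: 0 of them lay among the deepest 10% of cells or had a barcode of both libraries, and the WD over NC ratios with all deposited cells were those of the main setting. Of values that differed from the main one, 104 of 138 main results stayed within their counting interval or within 1.5 times the count and 34 moved. For a list median, the interval used was that of the 1 gene with the ratio nearest to it, and not an interval of the median. Staying within it therefore says little about how stable a median was. Of 233 values of single genes 199 stayed, 31 moved and 3 crossed 0 beyond the interval. The median antiviral ratio of WD to NC, 0.06, changed sign in 7 settings and was lowest, at -0.15, with a limit of 10. Slfn5, at -0.00, changed sign in 6, within its interval. A limit of 3 UMIs for the rule gave shares of 5.82% of NC and 7.16% of WD cells, a median antiviral log2 ratio in WD of 1.504, and 44 genes higher and 8 lower in WD. A limit of 10 gave shares of 1.30% and 1.92%, antiviral medians of 2.36 in NC and 2.12 in WD, a share of NC cells with at least 5 Ccl5 UMIs of 84.4%, and 181 genes higher and 74 lower. Gzmb at 0 UMIs gave shares of 2.28% and 2.84% and 40 genes lower. Against resting cells at 0 or 1 UMI the antiviral median in WD was 1.90. Counts of genes higher and lower in WD were 123 and 78 with mitochondrial, ribosomal protein and rule genes left out of the total, 34 and 7 with cells thinned to 2000 UMIs, 300 and 97 at 20 CPM, 23 and 7 at 100 CPM, 326 and 97 with no CPM filter, and 305 and 82 at a fold of 1.5. The count of lower genes was 31 with a mean over cells, 29 in cells with at least 5 Ccl5 UMIs, and 12 without the cell of each library with most UMIs of a gene. Below 5 Ccl5 UMIs 168 genes were higher and 59 lower, the memory and effector median was 0.24, and Ccl4 (-0.51), Cxcl10 (-1.39) and Bst2 (0.17) had the opposite direction. The intervals of Ccl4 (-1.92 to 0.83) and Bst2 (-0.17 to 0.51) held 0, and that of Cxcl10 (-2.28 to -0.55) did not. There Hk2 was at 4.19, Bhlhe40 at 3.41, Nr4a2 at 2.83, Slfn5 at -0.86, Id2 at 0.38 and Ccl5 at 0.24. The cause of these moves was not tested. Without the 1 cell of each library with 10 or more myeloid UMIs the ratio of Cxcl10 was 1.12, and 73 of the 76 higher and 16 of the 19 lower genes were still past 2-fold. Leaving out those cells or each gene's highest cell, and the limits of 50 Ccl5 UMIs and of 25 at 4000 UMIs, were chosen after seeing the data. No paired analysis was possible because each diet had 1 library.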

Other observations

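The genome-encoded mitochondrial transcripts of the selected cells summed to 22390 CPM in NC and 26575 in WD, against 26606 and 30407 in the other resting cells. Proliferation genes outside the rule summed to 1632 and 1722 CPM, against 1739 and 1950 in the other resting cells and 5328 and 5694 in the non-resting cells with the same interferon limit. Cholesterol synthesis genes summed to 309 and 387 CPM, against 349 and 413. No test was made of these values.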
